A study of Mus musculus with 576 samples.

Results

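The mesothelial marker genes are 10 genes, Upk3b, Upk1b, Wt1, Msln, Lrrn4, Gpm6a, Krt8, Krt18, Krt19 and Cav1, that were chosen by symbol and were all present among the 36658 genes of the count tables. They were followed in 576 single cells of the embryonic day 12.5 mouse dorsal pancreas, sorted for green fluorescence into 96-well plates and sequenced by Smart-seq2, a full-length method without molecular identifiers. Cells came from 3 lines with 2 plates each: Nkx2.5-Cre;mTmG (plates 6A and 6B), Nkx3.2-Cre;mTmG (plates 7A and 7B) and Prox1-GFP, the Tg(Prox1-EGFP) reporter (plates 8A and 8B). The mTmG allele of the Cre lines turns from red to green in cells that expressed Cre and stays green in their descendants, so these cells carry a history of Nkx2.5 or Nkx3.2, whereas the Prox1 transgene is a reporter of present expression. The mice were on a C57BL/6J background, embryos of both sexes entered, and no treatment was given. No animal, embryo or litter is named for a cell, so each line was 1 sample, cells were not replicates, and no test was run. Each line had plates of its own, so the effect of a line cannot be told apart from that of its plates. The library numbers of the Prox1 plates form a range of their own, so for these plates the effect of the line and that of the library run cannot be told apart.

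The mesothelium is a simple squamous epithelium that covers the organs of the body cavities, the pancreas included. It is an unusual epithelium because it arises from mesoderm: it makes keratins, as gut epithelia do, but also the transcription factor WT1 and fibrous collagens, as mesenchyme does. Some of its cells can leave the surface during development and become mesenchyme. The genes fall into 5 groups by role. Upk3b and Upk1b encode uroplakins, membrane proteins of apical plaques in the urinary tract that are also made by mesothelium. Wt1 encodes a zinc finger transcription factor, while Msln (mesothelin, a surface glycoprotein), Lrrn4 (a leucine-rich repeat membrane protein) and Gpm6a (a proteolipid family glycoprotein) encode other surface proteins. Krt8, Krt18 and Krt19 encode keratins of simple epithelia, with KRT8 as the type II partner of the type I keratins KRT18 and KRT19. Cav1 encodes caveolin-1, the main coat protein of caveolae.

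After the filters of the study's methods 549 of the 576 cells remained (90, 83, 95, 96, 93 and 92 on plates 6A to 8B), and no 2 cells held identical values. A passing cell held a median of 901156 counts (224814 to 1512736). By line the median count was 1056674 (Nkx2.5), 896115 (Nkx3.2) and 808006 (Prox1), and the median number of genes detected was 5750, 7235 and 6993. A level is given as CPM, the counts of a gene per 1000000 counts, both added up over the cells compared, and detection as the share of cells with at least 1 count. Brackets after a level hold the exact 95% Poisson interval and brackets after a share the exact 95% binomial (Clopper-Pearson) interval; both cover counting error only, not the difference between embryos.

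The promoter sequences of 5 members are shown because the levels below fall into contrasting patterns: Upk3b, Lrrn4 and Cav1 were high in mesothelium-like cells and near 0 in the other classes, and the neighbours Krt8 and Krt18 were also high in epithelium. Each run is the 250 bases before a RefSeq gene start on GRCm38.p6, 5′ to 3′ on the strand of the gene, and capitals mark matches of 3 motifs searched on both strands: GGAATG (the core that TEAD factors bind), GGGCGG (the GC box) and TATAAA (the TATA box). The windows are chr5:136038246-136038495 (plus strand) for Upk3b, chr2:132880863-132881112 (minus) for Lrrn4, chr6:17306085-17306334 (plus) for Cav1, chr15:102004343-102004592 (minus) for Krt8 and chr15:102027966-102028215 (plus) for Krt18.
Upk3b: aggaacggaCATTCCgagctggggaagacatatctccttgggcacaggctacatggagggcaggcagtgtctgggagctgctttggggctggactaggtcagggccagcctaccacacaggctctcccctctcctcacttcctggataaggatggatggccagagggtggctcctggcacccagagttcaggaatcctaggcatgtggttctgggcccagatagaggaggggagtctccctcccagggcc
Lrrn4: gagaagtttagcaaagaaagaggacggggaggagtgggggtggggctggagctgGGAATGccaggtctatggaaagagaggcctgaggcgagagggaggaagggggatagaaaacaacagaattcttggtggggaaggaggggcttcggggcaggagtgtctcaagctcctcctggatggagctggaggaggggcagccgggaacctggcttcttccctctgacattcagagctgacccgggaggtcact
Cav1: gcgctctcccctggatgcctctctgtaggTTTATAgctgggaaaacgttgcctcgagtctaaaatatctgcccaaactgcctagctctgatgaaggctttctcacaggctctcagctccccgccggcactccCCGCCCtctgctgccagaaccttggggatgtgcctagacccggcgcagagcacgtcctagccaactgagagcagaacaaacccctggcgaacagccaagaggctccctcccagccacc
Krt8: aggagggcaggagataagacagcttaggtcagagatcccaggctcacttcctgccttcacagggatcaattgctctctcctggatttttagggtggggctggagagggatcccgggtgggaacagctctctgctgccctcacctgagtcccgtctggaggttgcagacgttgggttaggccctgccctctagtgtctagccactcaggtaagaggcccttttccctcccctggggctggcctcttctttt
Krt18: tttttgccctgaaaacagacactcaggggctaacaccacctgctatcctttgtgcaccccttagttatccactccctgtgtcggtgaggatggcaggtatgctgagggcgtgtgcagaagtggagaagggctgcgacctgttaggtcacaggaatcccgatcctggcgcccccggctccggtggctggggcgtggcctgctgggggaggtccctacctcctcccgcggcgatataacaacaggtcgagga
Upk3b held GGAATG in reverse orientation 241 bases before the start, Lrrn4 held it in forward orientation 196 bases before, and Cav1 held TATAAA 221 bases before and GGGCGG nearer to the start, both in reverse. The Krt8 and Krt18 windows held none of the 3. Of all 32851 promoter windows in the RefSeq table, 12.6% held GGAATG, 32.7% GGGCGG and 12.4% TATAAA, so such matches are common, and a match is a description of letters, not a binding site. Promoters were matched by symbol for 6 of the 10 members; Upk1b, Wt1, Msln and Krt19 had no match, and Gpm6a, the sixth, had 2 windows whose starts lie outside its GENCODE M21 transcripts. Cav1 had 2 windows as well, of which that of the first start is shown. The RefSeq starts of Lrrn4, Krt8 and Krt18 lie inside their GENCODE M21 genes, so part of each of these windows is within the annotated gene.

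In GENCODE M21 on GRCm38 all 10 members are protein-coding genes. Krt8 (chr15:101996698-102004482, minus strand) and Krt18 (chr15:102028180-102032027, plus strand) are close neighbours on chromosome 15 and are transcribed away from each other. Wt1 (chr2:105126529-105173616) and Lrrn4 (chr2:132868305-132880891) share chromosome 2 at a distance. The others lie at chr5:136038496-136046487 (Upk3b), chr16:38773184-38800328 (Upk1b), chr17:25748613-25754378 (Msln), chr8:54954843-55060871 (Gpm6a), chr11:100140810-100148665 (Krt19) and chr6:17306335-17341452 (Cav1). Counts were summed over all transcripts of a gene, so they do not separate exons, introns or UTRs.

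The first question was in which line and on which plate each gene was seen. Upk3b was detected in 4.05% of Nkx2.5 cells [1.64 to 8.16], 12.04% of Nkx3.2 cells [7.79 to 17.5] and 0.541% of Prox1 cells [0.0137 to 2.97], with summed levels of 22.4, 58.4 and 0.341 CPM. Upk1b was detected in 3.47%, 11.5% and 1.62% of the cells in the same order. Cav1 was detected in 4.05% and 14.1% of the cells of the Cre lines and in 0 of the Prox1 cells, which allows a share of up to 1.62% (3 cells). Lrrn4 was seen in 2.31%, 10.5% and 1.62% of cells and Gpm6a in 1.16%, 6.81% and 3.78%. These 5 genes were therefore rare in every line and most often seen in the Nkx3.2 line. That lead lay largely on plate 7B, where Upk3b was in 20.8% of cells. On 7A Upk3b and Upk1b were each in 3.16% of cells, against 4.44% and 3.33% on 6A and 3.61% each on 6B. Cav1 (6.32%), Lrrn4 (5.26%) and Gpm6a (3.16%) were more frequent on 7A than on 6A or 6B, each in few cells.

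Wt1 was the most widely detected member in the Cre lines. It was present in 53.2% of Nkx2.5 cells [45.5 to 60.8], 67.5% of Nkx3.2 cells [60.4 to 74.1] and 16.8% of Prox1 cells [11.7 to 22.9], at summed levels of 91.2, 133.1 and 14.8 CPM. The keratins were most often detected in the Prox1 line and least often in the Nkx2.5 line. Krt8 was present in 0.578%, 13.1% and 58.9% of cells, Krt18 in 1.16%, 17.3% and 56.8%, and Krt19 in 0.578%, 9.42% and 27.03%. Msln alone was near level across lines, in 43.4%, 37.2% and 38.9% of cells at 1.85, 1.495 and 1.15 CPM.

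The plates of a line did not give the same picture. On plate 7B Upk3b was detected in 20.8% of 96 cells [13.2 to 30.3], against 3.16% of 95 cells on plate 7A [0.656 to 8.95], and its summed level was 112.1 CPM against 16.3 CPM. Upk1b reached 84.9 CPM on 7B and 7.92 CPM on 7A, Lrrn4 60.4 and 11.2 CPM, and Cav1 149.9 and 39.8 CPM. The 4 genes were thus all higher on 7B. On 7B 3 of the 10 members were at least 4-fold higher than on 7A: Upk1b (10.7-fold [9.94 to 11.6]), Upk3b (6.89-fold [6.53 to 7.28]) and Lrrn4 (5.37-fold [5.03 to 5.75]). Of all 14451 genes with at least 1 CPM over the passing cells, 3.82% passed the same fold. Nothing in the labels besides the plate name separates 7A from 7B, and whether the gap lies in the embryos, the dissection or the sort was not tested. On plate 6B 4 of the 10 members were at least 4-fold higher than on 6A, where 3.41% of all genes were, but each rested on few cells. Upk3b stood at 37.2 CPM on 6B and 8.67 CPM on 6A, on 3 and 4 detected cells, and Gpm6a (2 cells), Krt8 (1 cell) and Krt19 (1 cell) were detected on 6B and at 0 on 6A. Upk1b (14.2 and 16.7 CPM) and Cav1 (25.98 and 22.8 CPM) were close. Krt8 was at 743 CPM on 8A and 590 CPM on 8B.

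**Figure D1:**
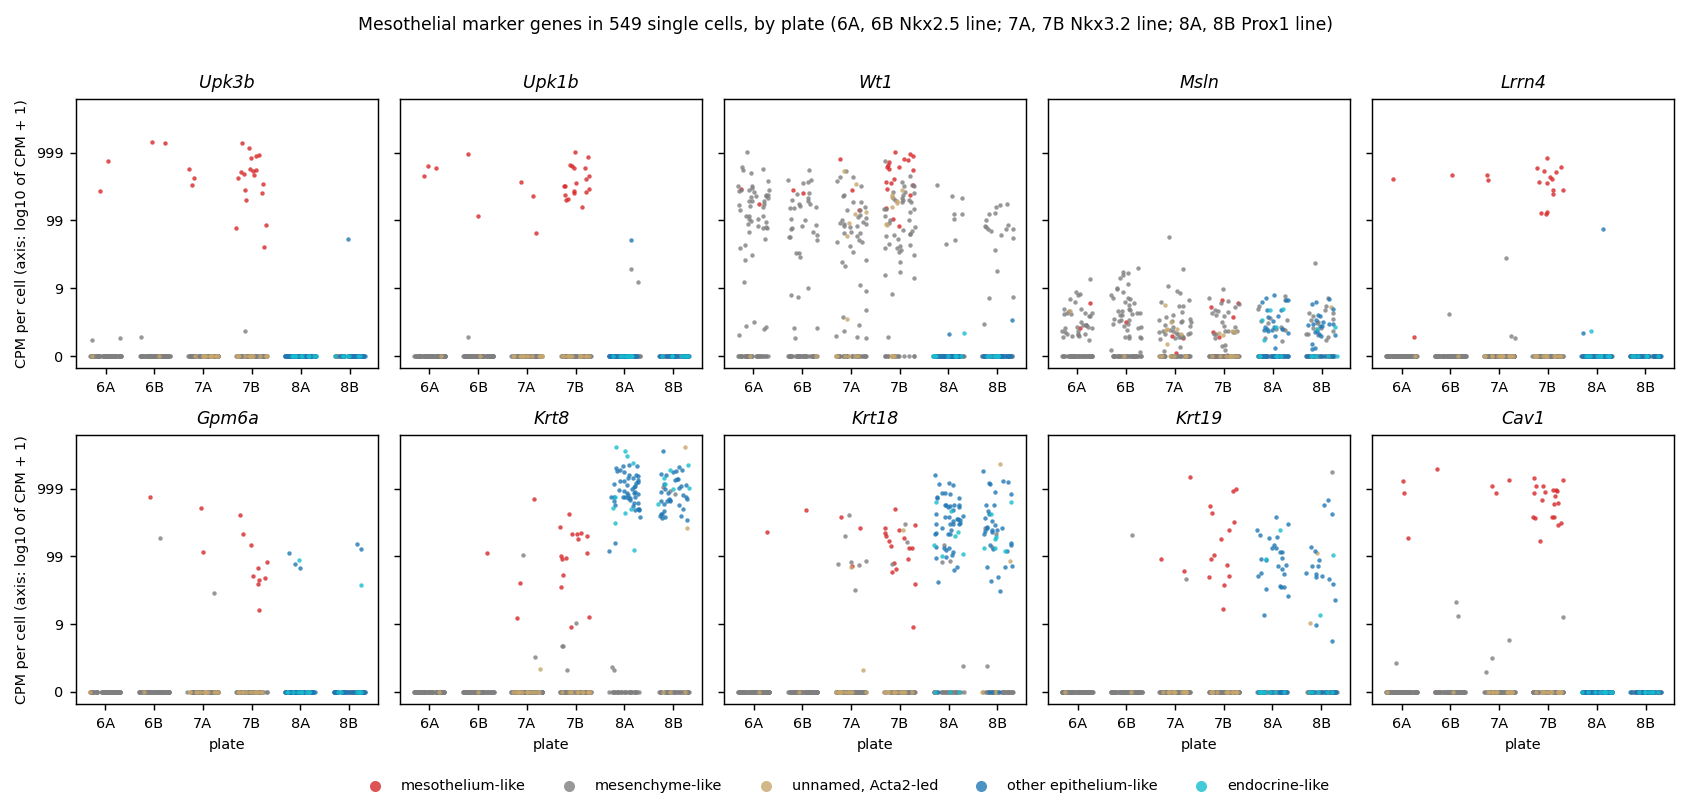
Level of each of the 10 genes in every passing cell, as log10(CPM + 1) on the vertical axis, by plate on the horizontal axis, with each point 1 cell coloured by cell class. Upk3b, Upk1b, Lrrn4 and Cav1 are high in a small set of cells that is largest on plate 7B, Wt1 is spread over the plates of the Cre lines, and Krt8 and Krt18 are high on plates 8A and 8B.

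To ask which cells carried the genes, cells were put into classes without using the members. Cells with at least 3 of the epithelial markers Epcam, Cdh1, Foxa2, Pdx1, Grhl2 and Esrp1 at 10 CPM or more were called epithelium-like. They all came from the Prox1 line, and 17 of them were called endocrine-like by at least 3 of 6 endocrine markers, which left 85 others. The other 447 cells fell into 11 clusters on variable genes from which the members were left out. A cluster of 28 cells was called mesothelium-like, since 5 mesothelial markers that are not members, Muc16, Rspo1, Bnc1, Aldh1a2 and Sbspon, were at least 4-fold higher there than in the other clusters pooled. Aldh1a2 was also high in the cluster that is called Acta2-led below, at 78.4 CPM against 106.1 CPM. Each of the 28 cells had Muc16 or Bnc1 at 10 CPM or more. The name did not rest on every listed marker, because Calb2 was at 0 and Nkain4 was lower in these cells (10.4 CPM) than in mesenchyme-like cells (81.2 CPM). A set of 9 clusters with 387 cells was called mesenchyme-like. The last cluster of 32 cells, led by the smooth muscle genes Acta2 and Tagln, was left unnamed and is called the Acta2-led cluster.

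The mesothelium-like cells were 3 on plate 6A, 2 on 6B, 3 on 7A, 20 on 7B and 0 on 8A and 8B. They made up 20.8% of plate 7B [13.2 to 30.3] and 3.16% of plate 7A [0.656 to 8.95], and on 7B they lay in 10 of the 12 well columns. For the Prox1 plates a count of 0 of 93 and 0 of 92 cells allows shares of up to 3.23% and 3.26%. Outside them Upk3b summed to 1 count on 7B and 0 on 7A, and Upk1b to 0 on both, so nearly all counts of the uroplakins on these plates lay in these cells. Lrrn4 (0 counts on 7B and 32 on 7A), Gpm6a (0 and 29), Krt19 (0 and 50) and Krt8 (0.187 and 1.33 CPM) were lower on 7B among the cells outside the class. These 7A values rested on few cells. All Gpm6a and all Krt19 counts lay in 1 cell each, 30 of the Lrrn4 counts lay in 1 cell, and 1 cell held Krt8 at 104.9 CPM. Wt1 was 1.63-fold higher on 7B outside the class [1.57 to 1.69].

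The mesothelium-like cells held some mesenchymal markers and lacked others, and lacked most epithelial ones. Of the 10 mesenchymal markers, the fibrillar collagen gene Col1a2 stood between 217 and 1728 CPM in all 28 cells, and Col1a1 was also detected in all 28. The matrix genes Dcn and Postn were higher than in mesenchyme-like cells, at 373 CPM against 76.9 CPM and 134.7 CPM against 30.7 CPM. The growth factor receptor gene Pdgfrb was lower, at 11.6 CPM against 179.4 CPM, as was the transcription factor gene Prrx1, at 0.124 CPM against 93.9 CPM, while Pdgfra and Twist1 were at 0, the latter detected in only 14.1% of mesenchyme-like cells as well. Of the 6 epithelial markers Cdh1, Foxa2, Pdx1 and Esrp1 were at 0, and the list summed to 24.6 CPM against 1469 CPM in epithelium-like cells. Epcam was at 10 CPM or more in 4 of the 28 cells, all on plate 7B, at 70.8 to 461 CPM. These 4 cells held 527298 to 904267 counts, within the range of the others, and whether any was a pair of cells in 1 well was not tested.

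A few cells of the Prox1 line sat near the gate. On plate 8B 5 cells had exactly 2 of the 6 epithelial markers, with Epcam at 220 to 846 CPM, Krt8 at 259 to 4109 CPM and Col3a1 at 0, and clustering had put 3 of them among the mesenchyme-like cells and 2 in the Acta2-led cluster. They weigh on the keratins, so mesenchyme-like values below are those of the 384 cells without them, and values with them are given where they differ.

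Cav1 was the highest member per length of transcript in the mesothelium-like cells and was absent from the epithelium-like cells. It was detected in 27 of 28 mesothelium-like cells, with a lowest value of 0, a median of 849 and a highest of 1927 CPM per cell, and a summed level of 794 CPM [782 to 805]. In mesenchyme-like cells it was detected in 7 of 384 cells at a summed 0.133 CPM, and no cell passed 20.3 CPM. In epithelium-like cells no cell held a count, so that the level in mesothelium-like cells was at least 22783-fold higher than a floor of 3 counts over the group. The ranges of the detected cells did not overlap, with the lowest of the 27 cells at 168.8 CPM. The exception was a 6B cell (well E6) with no Cav1 but the highest Upk3b of all, 1417 CPM.

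Both uroplakins followed Cav1. Upk3b was detected in 26 of the 28 mesothelium-like cells, at a median of 472 and a highest of 1417 CPM, and summed to 572 CPM [563 to 582]. Upk1b was detected in 27 of 28, at a median of 339 and a highest of 1006 CPM, and summed to 405 CPM [397 to 413]. Outside this class they were nearly absent. Upk3b summed to 0.0113 CPM in mesenchyme-like cells, which is 4 counts in 4 cells, and to 0.592 CPM in epithelium-like cells, where 1 cell of plate 8B held all 51 counts at 52.3 CPM. Upk1b summed to 0.0536 and 0.592 CPM, and here too 1 epithelium-like cell, of plate 8A, held the whole epithelial count at 50.5 CPM. A level of that kind rests on 1 cell and was not read as expression in the class.

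Lrrn4 had the same pattern with more cells at 0. It was detected in 20 of the 28 cells, at a median of 276 and a highest of 825 CPM, and summed to 262 CPM [255 to 268], against 0.102 CPM in mesenchyme-like and 0.778 CPM in epithelium-like cells. The epithelial value again came mostly from 1 cell, on plate 8A at 74.2 CPM. Gpm6a was the patchiest of the surface proteins. It was detected in 13 of 28 cells, with a median of 0 and a highest of 739 CPM, and summed to 101.8 CPM [97.8 to 105.9]. It was not silent elsewhere: 7 epithelium-like cells (6.86%) held it at up to 149.8 CPM, and 1 mesenchyme-like cell of plate 6B held it at 183.7 CPM.

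Wt1 was present in nearly all mesothelium-like cells but was not particular to them. It was detected in 27 of 28 cells, at a median of 362 and a highest of 1003 CPM, and summed to 451 CPM [442 to 459]. In mesenchyme-like cells it was detected in 207 of 384, 53.9% [48.8 to 58.98], at a summed 77.5 CPM [76.6 to 78.5], which made the mesothelium-like level 5.81-fold higher [5.68 to 5.94]. The cells overlapped widely, because the highest Wt1 value of any cell, 1009 CPM, was in a mesenchyme-like cell of plate 6A. In epithelium-like cells it was close to 0, with counts in 3 cells (2.94%) and no cell above 2.44 CPM.

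The summed level of Wt1 in the mesenchyme differed between lines also within a cluster. Over the mesenchyme-like cells it stood at 88.6 CPM in the Nkx2.5 cells, 80.03 CPM in the Nkx3.2 cells and 38.9 CPM in the Prox1 cells. In the largest cluster, of 77 cells led by genes of DNA replication and mitosis, the 3 lines stood at 101.6, 68.4 and 67.1 CPM, the last 2 with overlapping intervals. Detection there was 67.6%, 64.3% and 73.3%, highest in the Prox1 line. In the next, of 58 cells, they stood at 79.1, 44.2 and 22.4 CPM. In a cluster of 36 cells the Nkx2.5 line stood at 163.2 CPM and the Nkx3.2 line at 109.9 CPM. The Cre lines were in the reverse order in the cluster of 49 cells, at 62.9 and 100.3 CPM beside 46.6 CPM for Prox1, and in a cluster of 35 cells, at 46.9 and 87.998 CPM. In a cluster of 27 cells led by Zmat4 the Nkx3.2 line had 142.7 CPM in 6 cells and the Prox1 line 30.7 CPM in 21. Where given, the Prox1 level was the lowest of the cluster, although in the largest its interval overlapped that of the Nkx3.2 cells. The intervals of detection overlapped between the lines in every cluster given here. Since the Prox1 line is 1 sample in libraries of its own, line, embryo and batch cannot be told apart.

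Msln, although its name is used for the mesothelium, did not mark these cells at this stage. It was detected in 39.3% of mesothelium-like cells [21.5 to 59.4], 39.3% of mesenchyme-like cells [34.4 to 44.4] and 42.2% of epithelium-like cells [32.4 to 52.3], with summed levels of 1.04, 1.69 and 1.14 CPM. With each cell thinned to 100000 counts the shares fell to 7.14%, 10.7% and 6.86%. No mesothelium-like cell reached 10 CPM. The highest cell, at 56.6 CPM, was a mesenchyme-like cell of plate 7A that also held Krt8 (104.9 CPM) and Epcam (23.1 CPM). Of the 251 Msln values above 0, only 1.99% were whole numbers (within 1e-06), against 96.3 to 100% for the other 9 members. The estimator divides a read among all transcripts that it fits, so nearly every Msln value includes reads shared with transcripts of another gene, and the level is uncertain.

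**Figure D2:**
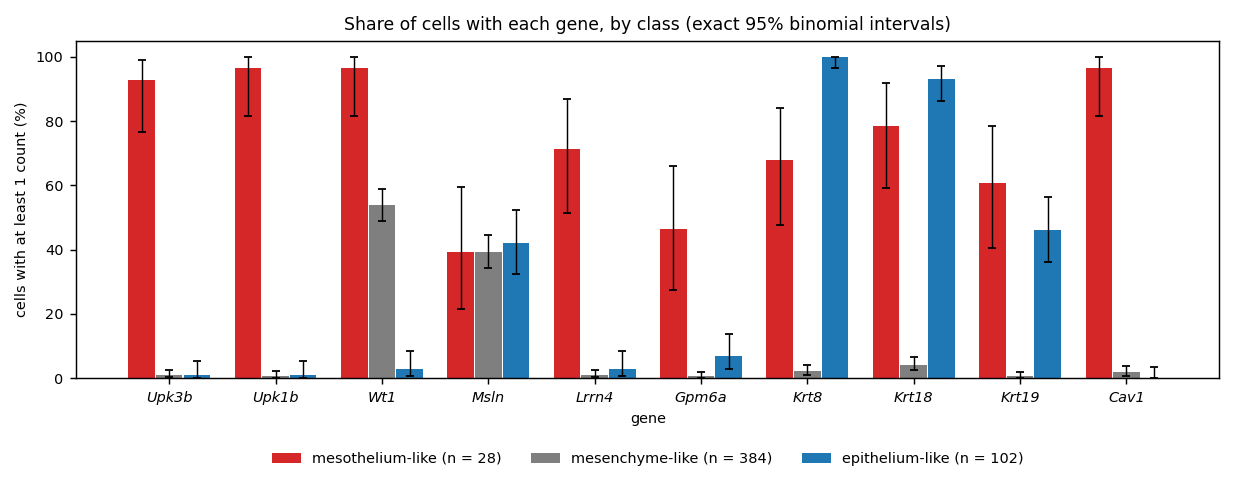
Share of cells with at least 1 count of each gene (vertical axis, percent) in 28 mesothelium-like, 384 mesenchyme-like and all epithelium-like cells, with bars starting at 0 and error bars for the exact 95% binomial interval. Upk3b, Upk1b, Lrrn4 and Cav1 are high in the mesothelium-like bars and near 0 in the others, Wt1 has a mesenchyme-like bar of 53.9%, Krt8 and Krt18 are highest in epithelium-like cells, and the 3 Msln bars overlap.

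All 3 keratins were also present in epithelium-like cells, and each of the 3 was placed differently. By the rule given below only Krt8 and Krt18 counted as shared. All epithelium-like cells came from the Prox1 plates and all mesothelium-like cells from the plates of the Cre lines. In every comparison of these classes, class, line and library run therefore cannot be told apart. Krt8 was 9.51-fold higher in epithelium-like cells, at 1085 CPM [1078 to 1092] in 100% of cells, than in mesothelium-like cells, at 114.1 CPM [109.9 to 118.4] in 19 of 28 cells. Krt18 was also higher in epithelium-like cells, by 2.34-fold, at 373 CPM in 93.1% of cells against 159.5 CPM in 22 of 28 cells. Krt19 ran the other way in its summed level: it was 3.91-fold higher [3.76 to 4.07] in mesothelium-like cells, at 219 CPM [213 to 225] in 17 of 28 cells, than in epithelium-like cells, at 55.9 CPM [54.4 to 57.5] in 46.1% of cells. That difference rested on a few cells, because the 4 with the highest Krt19 held 73.1% of its counts in the class, and the other 24 stood at 70.1 CPM, 1.25-fold over the epithelium-like level. The single-cell ranges overlapped for all 3, since the highest mesothelium-like cell had 696 CPM of Krt8, 501 CPM of Krt18 and 1483 CPM of Krt19, and the highest epithelium-like cell 4091, 1811 and 685 CPM.

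Within the epithelium the summed levels of the keratins differed between endocrine-like cells and the others. Krt8 was at 1523 CPM in the 17 endocrine-like cells and 998 CPM in the other 85, whereas Krt18 was at 230 and 401 CPM and Krt19 at 27.6 and 61.5 CPM. All 3 keratins together at 10 CPM or more were found in 2 of the 17 and 40 of the 85 cells. Krt8 was thus higher and its type I partners lower in the endocrine-like cells, all of which came from the same 2 plates as the others.

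In the mesenchyme Krt8 and Krt19 were nearly absent and Krt18 was seen by itself in a few cells. Krt8 was detected in 8 of 384 mesenchyme-like cells at a summed 0.378 CPM, and in all 387 cells at 7.38 CPM, so most of the signal came from the 3 cells near the epithelial gate. Krt19 stood at 0.686 CPM and 5.20 CPM in the same way. Krt18 stood at 4.55 CPM without those cells and 5.43 CPM with them. Krt18 at 10 CPM or more without Krt8 occurred in 14 of the 384 cells, and in 17 cells when the Acta2-led cluster is included: 0 of the Nkx2.5, 12 of the Nkx3.2 and 5 of the Prox1 line. These 17 cells had Krt18 at 30.6 to 407 CPM, no Muc16, and Col3a1 at 417 CPM or more.

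**Figure D3:**
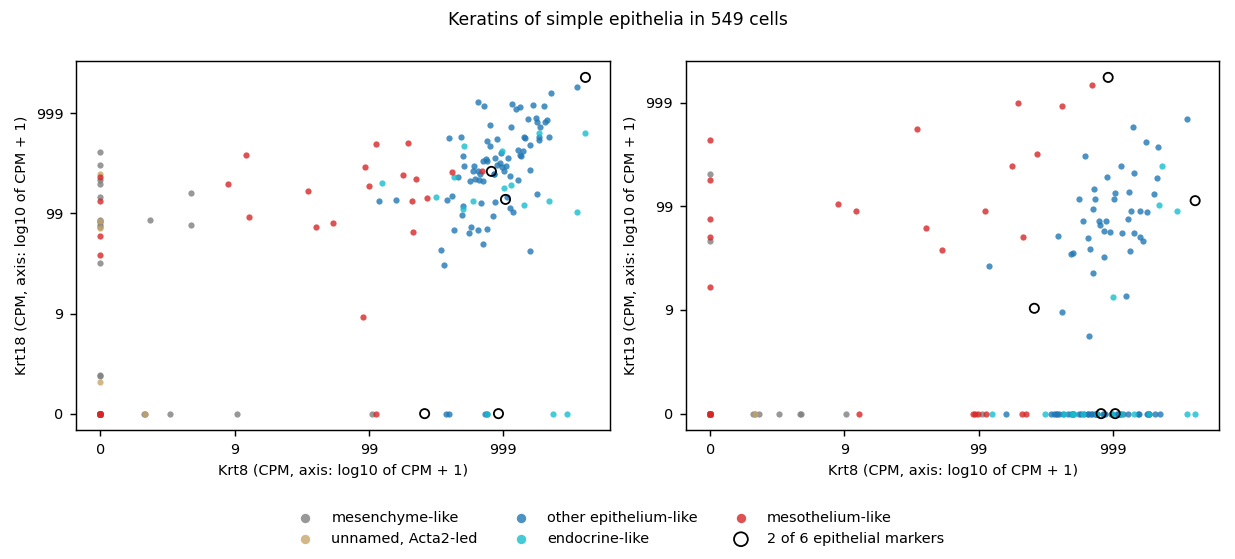
Krt8 against Krt18 (first panel) and Krt8 against Krt19 (second panel) in each passing cell, all as log10(CPM + 1), coloured by class, with open circles for the 5 cells that had 2 of the 6 epithelial markers. Epithelium-like cells lie high in Krt8, mesothelium-like cells spread over all combinations, and 14 mesenchyme-like cells lie on the Krt18 axis with Krt8 below 10 CPM.

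Counted together, 9 of the 10 members were at least 4-fold higher in mesothelium-like than in mesenchyme-like cells, all but Msln, where 5.31% of the 14451 genes tested were. Against epithelium-like cells the count was 6 of 10, namely Upk3b, Upk1b, Wt1, Lrrn4, Gpm6a and Cav1, where 7.98% of genes were. Those classes came from different lines and library runs, whose effects cannot be told apart from that of the class. In the last pairing 7 of 10 were at least 4-fold higher in epithelium-like than in mesenchyme-like cells, where 9.26% of genes were. These 7 were Krt8, Krt18, Krt19 and Gpm6a, plus Upk3b, Upk1b and Lrrn4, whose epithelial level rested wholly or mostly on 1 cell in each. The last count was 4 when plate 7B was left out before clustering, when the cell cycle was not regressed and when mesothelium-like cells were called by a gate on their markers. With the cells of plate 7B left out after clustering, which leaves 8 mesothelium-like cells, the counts were 9, 7 and 7, and Krt19 was detected in 37.5% of the 8 cells. The median ratio of the 10 members was 310.4 over mesenchyme-like cells (91.5 with the 3 cells near the epithelial gate) and 176.4 over epithelium-like cells. Since the clusters were built on genes that vary with the members, these counts describe the class and do not test it.

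A member was called shared with a class if its level there was at least 25% of that in mesothelium-like cells and at least 50% of the cells of the class held it after thinning. By this rule Krt8 and Krt18 were shared with epithelium and no member was shared with mesenchyme. For epithelium the rule also compares cells of different lines and library runs. Krt19 passed the first criterion for epithelium, with 25.6% of the level, but not the second, with 43.1% of cells. For mesenchyme Wt1 had the highest share of cells, with 17.1% of the level and 48.6% of cells over all 387 mesenchyme-like cells. Msln, whose level was low and uncertain, passed the first criterion for both classes but not the second. It was held by 10.6% of mesenchyme-like and 6.86% of epithelium-like cells after thinning. Cav1, Upk3b, Upk1b and Lrrn4 stood below 0.3% of the mesothelium-like level in both classes.

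Levels can be set side by side between genes only per kilobase of exon. In the mesothelium-like cells the order was Cav1 (230 CPM per kb), Upk1b (194), Upk3b (162.1), Krt19 (117.98), Krt18 (111.02), Wt1 (72.7), Lrrn4 (70.5), Krt8 (58.3), Gpm6a (31.7) and Msln (0.340). In this order all neighbours down to Gpm6a overlapped in their ranges over single cells, since each gene was at 0 in at least 1 of the 28 cells. In epithelium-like cells the order was led by Krt8 (554 CPM per kb), Krt18 (259) and Krt19 (30.2), and in mesenchyme-like cells by Wt1 (12.5) and Krt18 (3.17).

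Single mesothelium-like cells held a median of 7 of the 10 members at 10 CPM or more, with a range of 3 to 9. At that level Upk3b, Upk1b and Cav1 were together in 25 of 28 mesothelium-like cells and in 0 of the other 521. Of the 5 genes Upk3b, Upk1b, Lrrn4, Gpm6a and Cav1, 503 of the other cells held none at 10 CPM, 18 held exactly 1, and 0 held 2 or more. No cell outside the class thus held a pair of these genes at 10 CPM, but this does not hold at 1 count. A mesenchyme-like cell of plate 6B (well F7) held Upk3b (1 count) and Cav1 (13 counts). The only Upk1b count among the mesenchyme-like cells of 6B stood at 0.929 CPM, the same level as the 1 Upk3b count of F7. Other pairs below 10 CPM were not counted. The 3 keratins were together in 10 of the 28 cells, Krt18 was without Krt8 in 5, Krt19 was without Krt8 in 6, and all 3 keratins were under 10 CPM in 3.

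A few cells of the class lacked genes that most of the others held. The cell in well A9 of plate 7B had no Upk3b, Upk1b, Lrrn4, Gpm6a or Krt19, but held Cav1 at 770 CPM, Krt8 at 223 CPM and Bnc1 at 344 CPM. The cell in well H2 of 6A had no Upk3b but Cav1 at 1301 CPM and Muc16 at 760 CPM, and the cell in well F12 of 6A had no Wt1 but Upk3b at 755 CPM. With 1 library per cell, a gene that was not captured cannot be told apart from a gene that was not expressed.

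Krt19 was unevenly spread over the class. The 4 cells with the highest Krt19, at 559 CPM or more, were E7 of plate 7A and H3, D1 and C4 of plate 7B. Col3a1, a fibrillar collagen of mesenchyme, was under 30 CPM in 3 of these 4, with a range of 0 to 558 CPM, and under 30 CPM in 0 of the other 24, whose median was 696 CPM. The cells and the collagen were chosen after their values were seen, and the relation was not tested.

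**Figure D4:**
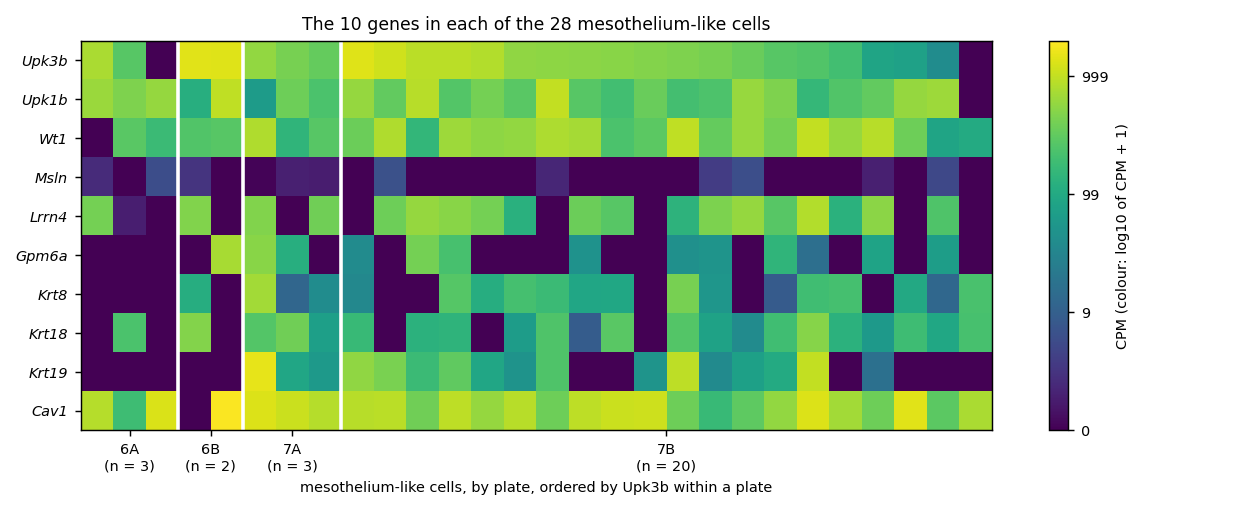
Level of the 10 genes in each of the 28 mesothelium-like cells, as log10(CPM + 1) in colour, with genes in rows and cells in columns ordered by plate. Upk3b, Upk1b, Wt1 and Cav1 fill nearly all columns, Krt19 is empty in the 5 cells of plates 6A and 6B, and Msln stays near 0 in all columns.

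Between the mesothelium-like cells of the Cre lines, 5 Nkx2.5 and 23 Nkx3.2 cells, the summed levels differed most for Krt8 and Krt19. Of the 23 cells 20 came from plate 7B, so line, plate and embryo cannot be told apart. Krt19 was at 0 in the 5 Nkx2.5 cells and at 277 CPM [269 to 284] in the Nkx3.2 cells, in 17 of 23, which is at least 467-fold higher than a floor of 3 counts over the group. The 4 cells with the highest Krt19, all of the Nkx3.2 line, held 73.1% of these counts. Krt8 was 5.44-fold higher in the Nkx3.2 cells [4.55 to 6.54], at 137.5 CPM in 18 of 23 cells against 25.3 CPM in 1 of 5. Krt18 had near-equal sums, 159.2 and 160.9 CPM, but was detected in 20 of 23 Nkx3.2 cells and 2 of 5 Nkx2.5 cells. The other members stood within 2.35-fold of each other. Wt1 was 2.35-fold higher and Lrrn4 1.82-fold higher in the Nkx3.2 cells, and Cav1 was at 781 and 842 CPM. Gpm6a was detected in 12 of 23 Nkx3.2 cells and in 1 of 5 Nkx2.5 cells. All 3 cells in which no keratin of the 3 reached 10 CPM were Nkx2.5 cells. The 2 members at least 4-fold higher in the Nkx3.2 cells, Krt8 and Krt19, compare with 27.6% of all genes, so the count is near the background.

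Genes of the same families mostly did not follow the members. Beside the counts below, 5.31% of all 14451 genes tested were at least 4-fold higher in mesothelium-like than in all 387 mesenchyme-like cells. Of the uroplakins Upk1a, Upk2, Upk3a and Upk3bl, 0 of 4 were at least 4-fold higher in mesothelium-like than in mesenchyme-like cells, and Upk1a and Upk3a were at 0 in the class. Of 5 further keratins 3 were, led by Krt7, a type II keratin of ductal epithelia, at 250 CPM in 26 of 28 cells against 1.62 CPM, with 195 CPM in epithelium-like cells. Krt14, a keratin of stratified epithelia, was at 30.8 CPM in 15 of 28 cells, and Krt20 rested on 1 cell. Krt7 was thus detected in more mesothelium-like cells than any of the 3 member keratins.

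Of 5 genes for caveolae 1 was, beside 5.31% of all genes. It was Cavin3, at 240 CPM against 32.5 CPM. Cavin1, the coat protein that caveolae require beside caveolin-1, was at 286 CPM against 107.4 CPM, a 2.66-fold difference, and Cav2, the usual partner of caveolin-1, was at 1.28 CPM in 1 of 28 cells. The relatives of Gpm6a and Lrrn4 were mostly lower in the class, but the share of all genes at least 4-fold lower was not counted. Gpm6b was at least 4-fold lower in the mesothelium-like cells, at 3.84 CPM against 20.6 CPM, and so were 3 of 4 Lrrn4 relatives, among them Lrrn3 at 16.9 CPM against 88.8 CPM. Mslnl was at 0 in the mesothelium-like cells.

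Of 20 further genes known from mesothelium 14 were at least 4-fold higher and 2 at least 4-fold lower in mesothelium-like than in mesenchyme-like cells. Of all genes tested 5.31% were at least 4-fold higher. Among the 14, Pkhd1l1 and C3 were each detected in only 2 of the 28 mesothelium-like cells. Of these 20 genes 10 had served to name the class. Of the other 10, 6 were higher and 1 was lower, and again the share of all genes at least 4-fold lower was not counted. Podxl, a sialomucin of apical membranes, was at 357 CPM in 28 of 28 cells and at 0 in the 384 mesenchyme-like cells. Crb2, an apical polarity protein, was at 289 CPM against 3.46 CPM, and Ezr, which links membranes to actin, at 461 CPM against 8.00 CPM. The transcription factor gene Gata4 was at 46.7 CPM in 7 of 28 cells. Tcf21, a transcription factor of visceral mesenchyme, was lower, at 38.8 CPM against 152.9 CPM, and Hand1 was at 0 against 11.2 CPM.

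Over the 549 cells the log2(CPM + 1) of Upk3b, Upk1b, Lrrn4, Gpm6a and Cav1 was followed most closely by that of other members, Bnc1 and Tm4sf5. Upk3b and Upk1b had a Pearson r of 0.935 with each other, and Cav1 had 0.929 with Upk1b and 0.899 with Upk3b. Bnc1, a zinc finger transcription factor, was at 0.887 with Upk1b, 0.892 with Cav1 and 0.806 with Lrrn4, and Tm4sf5, a tetraspan membrane protein, was at 0.885 with Upk3b, 0.787 with Lrrn4 and 0.536 with Gpm6a. Lrrn4 reached 0.809 with Upk3b, and Gpm6a 0.516 with it. The high values of this group rest on the contrast of 28 cells with the others, and the cells share plates, libraries and depth.

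The keratins followed other genes. Krt8 had 0.937 with Ambp, 0.929 with Cldn6 and 0.928 with Serpina1b, all genes of the epithelium-like cells that were at or near 0 CPM in the mesothelium-like ones. Krt18 had 0.855 with Krt8 and 0.795 with Spint2, a protease inhibitor of epithelia that was at 152.3 CPM in mesothelium-like and 578 CPM in epithelium-like cells. Krt19 was closest to Lama5 (0.612), Tgm2 (0.597) and F11r (0.593), a laminin chain, a transglutaminase and a junction protein, which were present in both classes, with Tgm2 at 408 CPM in mesothelium-like and 81.4 CPM in epithelium-like cells. Wt1 and Msln had no gene at 0.5 or more. Their highest values were 0.390 and 0.203.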

How the data were processed

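Expression was measured by Smart-seq2 in 576 cells, each a sample in GEO. Per the labels and the study's methods, the authors trimmed reads with Trim Galore 0.6.5, pseudoaligned them with kallisto to GRCm38 transcripts and deposited estimated counts per gene without normalization, which need not be whole; symbols came from GENCODE M21. Cells were kept from 1000 genes and 100000 counts upward if mitochondrial genes took no more than 30%. Levels were CPM of summed counts, and detection was 1 count or more, also after thinning to 100000 counts. Intervals are exact 95% Poisson or binomial ones, without PCR duplicates removed, and cover counting error only.

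Non-epithelial cells were clustered with Seurat 5.3.0 in R 4.3.3 (log-normalized to 10000, cell cycle difference regressed, 2000 variable genes without the members, 20 components, resolution 1.9). The naming rule was written after the clusters were seen: mesothelium-like needed 3 of 10 non-member mesothelial markers at 4-fold or more in at least 25% of cells, and a cluster whose 10 leading genes held more markers of another list than of mesenchyme stayed unnamed. No doublet caller was run.

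Genes named were the 10 members, fixed lists of relatives, and for each member the 3 genes of highest r (0.5 or more, detected in at least 20 cells). The members and lists were chosen with earlier results of these data known. Folds were compared with all genes of at least 1 CPM over the passing cells. With 1 sample per line no test was run. Scripts were tested on simulated data. Alternatives covered cell filters, the epithelial gate, clustering, TMM scaling (edgeR 4.0.16), detection limits and leaving out each plate.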

Additional observations from a re-analysis of the deposited data

How the results depend on the processing

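Of 110 recomputed counts, all but 6 stayed within 1.5 times the main value. The number of mesothelium-like cells, 28, became 0 when plate 7B was left out before clustering, since no cluster then met the naming rule, and no mesothelium-like value could be given there; with its cells left out after clustering, an alternative added after seeing the data, it was 8. The number of members at least 4-fold higher in epithelium-like than in mesenchyme-like cells, 7, became 4 without cell cycle regression, 4 without plate 7B and 4 with mesothelium-like cells called by a gate; the cause was not tested. The number shared with mesenchyme, 0, became 1 (Wt1) at 10% of the level and 25% of cells. Of 1070 recomputed shares of cells, 1009 stayed inside the interval of the main share. No paired analysis was possible because the labels give no replicates and no test was run. The results rest on 28 cells, 20 of them from plate 7B, and on 1 sample per line; detection depends on depth, as the thinned Msln shares show, and no interval covers the difference between embryos.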
